A study of Rattus norvegicus with 8 samples.

Results

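Rab GTPases were compared between the left atrium and the left ventricle of the rat through a list of 42 genes. The list is not the whole family, and 19 further Rab family genes that were measured are given apart. The 42 genes were found by their symbols in the annotation of the array, out of 14217 genes with a probe set of their own. Each gene was read by at least 1 probe set, meaning a set of short oligonucleotides that match its transcript, and the 42 genes had 76 probe sets in all, 1 probe set for 20 genes and several for 22. The study asked which transcripts differ between the atria, whose muscle cells store and secrete natriuretic peptides in granules, and the ventricles, whose muscle cells mainly contract. Atrial appendages and ventricular free walls were taken, from the left side per the study's methods, from 13 normal, untreated male Sprague-Dawley rats of 225 to 275 g, and 10 μg of total RNA was labelled for each array. There were 4 arrays of atrial tissue and 4 of ventricular tissue, each from a pool of animals, so that a replicate is a pool, the spread is that between pools, and the animals behind each pool are not given. The tissue was not separated into cell types, and fewer cells of a type and less RNA per cell cannot be told apart in these values.

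Rab proteins are small GTPases that mark the membranes of the secretory and endocytic pathways. Bound to GTP they recruit effectors, such as tethers and motors, that move, dock and fuse vesicles, and they return to the cytosol after hydrolysis of the nucleotide. Exchange factors (GEFs) load them with GTP, GTPase-activating proteins (GAPs) switch them off, and an escort protein presents them for the lipid modification by which they hold to membranes. In secretory cells members of the Rab3 and Rab27 subfamilies sit on granules, while Rab1, Rab2 and Rab6 act between the endoplasmic reticulum and the Golgi.

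The arrays bore out the tissue labels. Transcripts of atrial muscle (Nppa, Sln, Myl7 and Myl4) were higher in the atria in 4 of 4 cases, with a mean log2 signal of 13.11 to 13.23 over the list in the atrial pools and 6.84 to 7.79 in the ventricular pools, and 5 of 5 ventricular muscle transcripts were lower in the atria. Atrial pools 1 and 4 stood apart in these ventricular transcripts, with means of 7.70 and 8.14 against 5.68 and 6.26 in atrial pools 2 and 3 and 11.16 to 11.30 in the ventricles. Markers of other cell types also differed between the tissues. Mesothelial transcripts were higher in the atria for 5 of 6 genes (7.17 to 8.12 against 4.11 to 4.42), Wt1 being the exception (-0.38), adipocyte transcripts for 5 of 7 (5.65 to 8.43 against 4.77 to 4.93) and fibroblast transcripts for 7 of 7 (10.32 to 10.46 against 9.98 to 10.13). Those of endothelium were lower for 5 of 7 (7.92 to 7.94 against 8.42 to 8.60), Vwf being higher by 0.93, and those of smooth muscle and pericytes for 8 of 8 (6.74 to 6.86 against 7.59 to 7.67), and of the leukocyte transcripts 4 of 9 were lower and 1 higher (5.49 to 5.75 against 5.76 to 5.90). Neuronal transcripts were near the low end of the scale in both tissues for 9 of 12 genes, and their means ranged from 3.50 to 3.87 in the atria and from 3.48 to 3.59 in the ventricles. Of these 12 genes 2 were higher in the atria, Uchl1 by 0.45 (adjusted p = 7.7e-04), near the low end in both tissues, and Prph by 0.31 (0.021), and none was lower. The part of these other cell types in the differences of the Rab genes was not tested.

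Of the 42 Rab genes, 15 were higher in the atria and 4 were lower at an adjusted p under 0.05 (limma, adjusted over all 31042 probe sets), and 23 passed in neither direction. Of all genes on the array 22.5% were higher and 22.5% were lower by the same rule. In this list the share of genes that were higher lay above that of all genes and the share that were lower lay below it, without a test of either. Of the 19 further Rab family genes outside the list 2 were higher and 2 lower, so that the shares of the list are not those of the whole family. At an unadjusted p under 0.05 there were 20 Rab genes. The median difference was 0.06 on the log2 scale for the Rab genes and -0.04 for all genes, and the median size of the difference, whatever its sign, was 0.14 and 0.20. Most differences between the tissues were therefore small, and by the brightest probe set of each gene Rab15, Rab40b and Rab34 had the largest. With the mean of the probe sets Rab34 was higher by 0.47, less than Rab2a (0.66) and Rab9a (0.63). By the brightest probe set Rab15, Rab40b and Rab34 passed the thresholds of the study, applied here to limma as an adjusted p under 0.0001 with a fold of at least 1.8. The study itself used this fold with a false discovery rate of 0.01% from another test, SAM. All 3 genes were higher in the atria, whereas 3.37% of all genes passed as higher and 2.53% as lower. The 4 atrial pools lay entirely above the 4 ventricular pools in the 15 genes that were higher and entirely below them in the 4 that were lower, and the pools overlapped in the other 23. Over all genes the pools of the tissues did not overlap in 44.1%. Without atrial pools 1 and 4, 14 genes were higher and 4 lower, Rab32 being the gene lost.

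**Figure D1:**
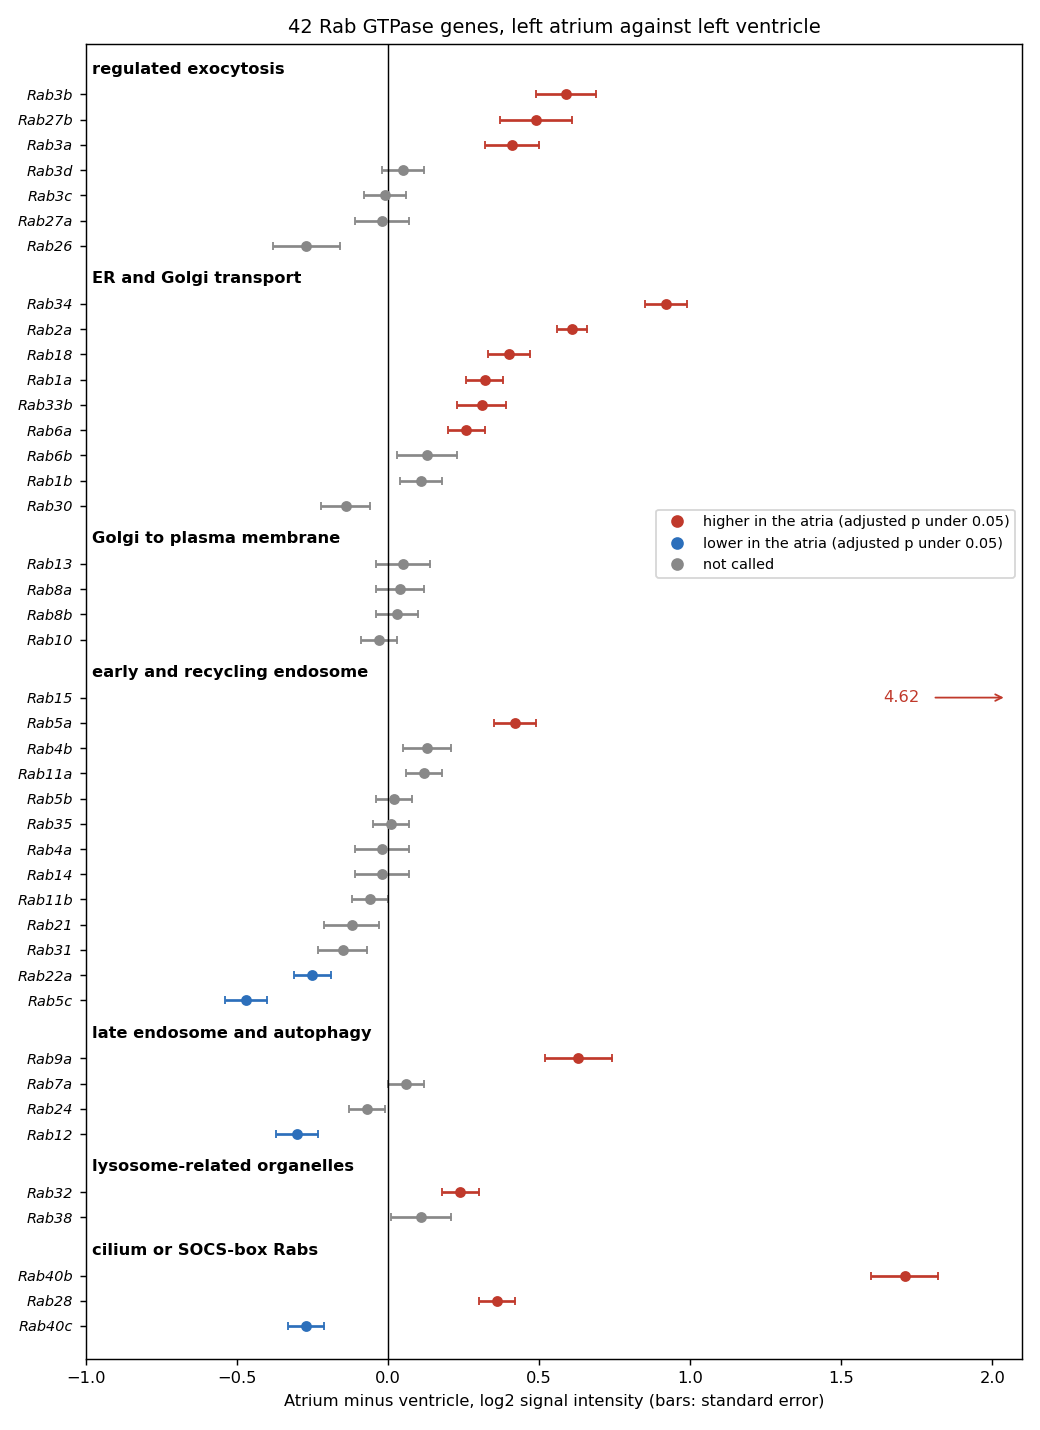
Atrial minus ventricular mean log2 signal for the 42 Rab genes, each by its brightest probe set and grouped by the route on which the protein acts; bars are standard errors from limma, red and blue points passed an adjusted p under 0.05, and Rab15 (4.62) lies beyond the axis. Under transport between the endoplasmic reticulum and the Golgi 6 of 9 genes were higher, and none of the 4 genes of Golgi to plasma membrane transport was called. Of all genes 22.5% were called in each direction.

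Rab15, an endosomal Rab known mainly from neural tissue, where it acts on the traffic of receptors through early and recycling endosomes, had the largest difference of the 42 genes. Its log2 signal was 7.70, 7.93, 7.78 and 8.07 in atrial pools 1 to 4 and 3.19, 3.27, 3.47 and 3.08 in ventricular pools 1 to 4. All 4 ventricular pools thus lay near the low end of the scale, here a log2 signal under 4, where 37.8% of the probe sets had their mean. The means of 7.87 ± 0.16 and 3.25 ± 0.17 (SD, n = 4 each) differed by 4.62 ± 0.10 (standard error), or 24.5-fold (adjusted p = 9.7e-10). Given the dim ventricular signal this is a lower bound for this probe set, but not for the gene. The other 2 probe sets of Rab15 were also higher in the atria, by 1.65 (adjusted p = 9.3e-07) and by 0.98 (7.2e-05). In the probe set with the difference of 1.65 the ventricular mean, 3.86, was again near the low end, while in that with the difference of 0.98 it was 4.93 ± 0.18 against 5.92 ± 0.21 in the atria. All 3 probe sets of Rab15 separated the tissues, and the size of the difference depended on the probe set, the mean of the 3 being higher by 2.42 (adjusted p = 1.8e-08).

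Rab40b belongs to the Rabs with a SOCS box, a motif through which proteins join cullin ubiquitin ligases. Its log2 signal was 6.97, 7.16, 6.88 and 6.67 in the atria and 5.19, 5.20, 5.05 and 5.40 in the ventricles. Each atrial pool was thus above each ventricular pool, the lowest of the atria being pool 4. The difference was 1.71 ± 0.11, or 3.27-fold (adjusted p = 7.4e-07). A dimmer probe set of Rab40b was higher by 0.43 (adjusted p = 0.0025), and the mean of both by 1.07 (4.3e-06). Rab40c, its relative with the same motif, went the other way, with 6.63, 6.61, 6.52 and 6.47 in the atria and 6.82, 6.89, 6.83 and 6.78 in the ventricles. It fell by 0.27 ± 0.06 in the atria (adjusted p = 0.0051), and its 4 atrial values were all below the lowest ventricular value. The difference between Rab40b and Rab40c shifted by 1.98 on the log2 scale between the tissues, the largest shift among the 18 pairs of related Rabs that were compared (exact permutation test, two-sided, p = 0.0286, adjusted over the 18 pairs to 0.0643). With 4 pools against 4, 0.0286 is the smallest p that the test can give. A pair at this p can pass the adjustment only if more of the other pairs also reach it, whatever its own shift.

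Rab34, found at the Golgi, has known roles in the positioning of lysosomes and in the building of primary cilia. Its log2 signal was 7.66, 7.70, 7.66 and 7.85 in the atria against 6.76, 6.94, 6.75 and 6.72 in ventricular pools. The difference of 0.92 ± 0.07 was 1.90-fold (adjusted p = 3.6e-06), just above the fold threshold of the study. A dimmer probe set annotated to Rab34 did not separate the tissues, with 4.99 ± 0.12 in the atria and 4.97 ± 0.12 in the ventricles (difference 0.02, adjusted p = 0.88). Rab34 was the only gene among the 8 higher ones with several probe sets in which another probe set was not higher. The mean of its probe sets differed by 0.47 (adjusted p = 1.3e-04), and with the replicate number as a block the adjusted p was 1.1e-04, so that Rab34 did not pass the thresholds of the study under either.

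**Figure D2:**
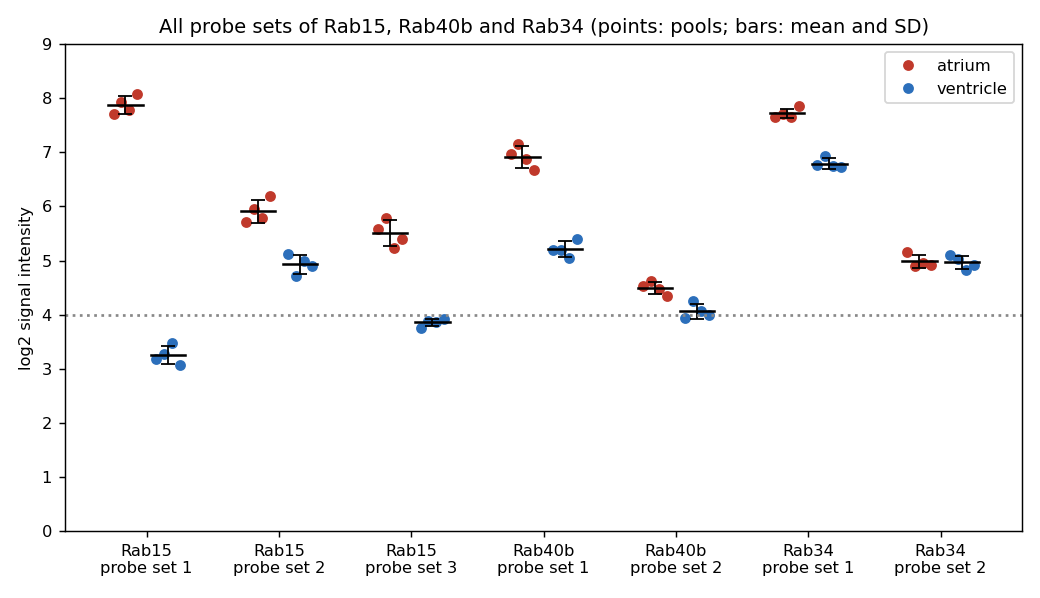
Log2 signal of every pool (points) for all 7 probe sets of Rab15, Rab40b and Rab34, with mean and SD (bars, n = 4 pools per tissue); the dotted line marks a log2 signal of 4. Atrial and ventricular pools are apart in all but the second probe set of Rab34, and the ventricular pools of the first Rab15 probe set lie below the line.

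The sequences upstream of these genes are printed because they are the 3 Rabs past the thresholds of the study and, for Rab40c, because it is the relative of Rab40b that went the other way. They are the 250 bases before the start of each gene in RefSeq on the rat assembly GRCr8: Rab15 at chr6:101257084-101257333 on the minus strand, Rab40b at chr10:107157376-107157625 on the minus strand, Rab40c at chr10:15440660-15440909 on the minus strand and Rab34 at chr10:63581292-63581541 on the plus strand. Each is written from 5′ to 3′ on the strand of the gene. Capitals mark the GC box GGGCGG, a binding motif of Sp1, and the T-box motif AGGTGT, on either strand, so that the T-box motif on the opposite strand reads ACACCT.
Rab15: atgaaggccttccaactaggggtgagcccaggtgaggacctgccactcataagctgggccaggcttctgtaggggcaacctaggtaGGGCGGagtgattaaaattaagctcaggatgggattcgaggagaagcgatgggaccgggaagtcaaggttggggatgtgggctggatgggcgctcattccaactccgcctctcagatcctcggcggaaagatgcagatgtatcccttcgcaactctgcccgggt
Rab40b: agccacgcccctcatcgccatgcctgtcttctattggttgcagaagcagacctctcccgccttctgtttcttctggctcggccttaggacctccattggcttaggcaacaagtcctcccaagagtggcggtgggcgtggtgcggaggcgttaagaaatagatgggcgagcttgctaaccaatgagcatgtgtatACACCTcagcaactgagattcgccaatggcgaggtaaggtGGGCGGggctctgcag
Rab40c: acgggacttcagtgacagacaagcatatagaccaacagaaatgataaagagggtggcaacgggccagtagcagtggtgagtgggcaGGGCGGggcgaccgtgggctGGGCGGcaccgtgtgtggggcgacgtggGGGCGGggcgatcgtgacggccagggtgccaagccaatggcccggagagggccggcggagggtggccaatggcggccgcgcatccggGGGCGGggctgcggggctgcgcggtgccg
Rab34: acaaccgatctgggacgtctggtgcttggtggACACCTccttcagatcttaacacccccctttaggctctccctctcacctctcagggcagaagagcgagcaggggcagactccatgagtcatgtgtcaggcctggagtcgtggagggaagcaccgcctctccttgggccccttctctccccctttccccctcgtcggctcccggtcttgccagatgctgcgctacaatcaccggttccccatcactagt
Rab40c held 4 GC boxes, at 164, 144, 116 and 29 bases before the start. Rab15 held 1 at 164 and Rab40b held 1 at 16. The T-box motif was found on the opposite strand of Rab40b, at 56 bases before the start, and of Rab34, at 218. The nuclear receptor motif AGGTCA, the E-box CACGTG and the TATA box TATAAA were also searched on both strands and were not found in these 4 windows, and no match overlapped another. Of all 33469 RefSeq promoter windows of this length 11.6% held the T-box motif and 30.5% the GC box, and of those of 11733 measured genes 10.9% and 55.3% did, while 12.2% of the latter held AGGTCA, 8.2% the E-box and 8.6% the TATA box. Among the 36 of 42 Rab genes with a window, the GC box was found in 29, the T-box motif in 5, AGGTCA in 5, the E-box in 3 and the TATA box in 0. The genes without a window were Rab1b, Rab2a, Rab22a, Rab24, Rab26 and Rab38. These matches describe letters and not binding.

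Rabs of regulated exocytosis, which attach secretory vesicles to the membrane they fuse with, were higher in the atria for 3 of 7 genes, and none was lower, where 22.5% of all genes were called in each direction. Rab3b had log2 signals of 10.20, 10.11, 10.16 and 9.72 in the atria and 9.58, 9.42, 9.46 and 9.39 in the ventricles, and was higher in the former by 0.59 ± 0.10 (adjusted p = 0.0012). Rab3a had 8.72, 8.74, 8.64 and 8.37 in the atria and 8.28, 8.27, 8.15 and 8.13 in the ventricles, and was higher in the former by 0.41 ± 0.09 (adjusted p = 0.0035), while another probe set of Rab3a was higher by 0.60. For both genes atrial pool 4 was the lowest of the atria and lay closest to the ventricles. Rab27b, which docks granules in several secretory cells, had 4.00, 4.19, 4.59 and 4.07 in the atria against 3.69, 3.75, 3.61 and 3.83 in ventricular pools. Its difference of 0.49 ± 0.12 (adjusted p = 0.0071) is a lower bound for this probe set, as the ventricular mean of 3.72 was near the low end. A second probe set was higher by 0.35 with both means under 4. Its relative Rab27a had 5.83 ± 0.19 and 5.85 ± 0.06 (difference -0.02, adjusted p = 0.87), and its other 2 probe sets were not called either.

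The remaining Rabs of this kind did not pass. Rab3d had a difference of 0.05 (adjusted p = 0.61) with means of 6.59 and 6.54. Rab3c, with 2.75 and 2.77, and Rab26, with 3.42 and 3.69, were near the low end in both tissues, and nothing can be read from their differences of -0.01 and -0.27. Within the subfamilies the shift of Rab3a against Rab3b was -0.17 and that of Rab27a against Rab27b was -0.51. By the brightest probe sets each had the smallest p of the exact permutation test (0.0286, adjusted 0.0643). Neither passed after adjustment, which at this p depends on the other pairs and does not decide whether these pairs differ. With the mean of the probe sets the shift of Rab3a against Rab3b was -0.08 and that of Rab27a against Rab27b -0.34 (same test, adjusted p = 0.482 and 0.0935). By the brightest probe sets the shifts of Rab3a and Rab3b against Rab3d were 0.36 and 0.53 (adjusted p = 0.171 and 0.103).

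Rabs of transport between the endoplasmic reticulum and the Golgi were higher in 6 of 9 cases, where 22.5% of all genes were called in each direction. Their median difference was 0.31 over the 9 genes against -0.04 over all genes. None of the 9 genes was lower. Rab2a, which acts on membranes between the endoplasmic reticulum and the Golgi, had the tightest values of the called genes, with 10.46, 10.50, 10.51 and 10.49 in the atria and 9.90, 9.87, 9.87 and 9.90 in the ventricles. It was higher by 0.61 ± 0.05, or 1.52-fold (adjusted p = 7.9e-06), and by 0.71 in its other probe set (adjusted p = 1.3e-05). The gap between the tissues was far wider than the SD of 0.02 between the pools of either.

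Rab1a and Rab1b, which carry cargo from the endoplasmic reticulum to the Golgi, could be separated only in part. The probe set of Rab1a alone gave 10.71, 10.77, 10.78 and 10.82 in the atria and 10.46, 10.38, 10.45 and 10.51 in the ventricles, and was higher in the former by 0.32 ± 0.06 (adjusted p = 0.0015). The 4 probe sets of Rab1b alone were not called, the brightest having a difference of 0.11 (adjusted p = 0.26). A further 3 probe sets are annotated to both genes and were counted for neither. Of these, 2 were higher in the atria, by 0.47 (adjusted p = 0.0063) and 0.40 (0.0049), and the third was near the low end and was not called. By the brightest probe sets the shift of Rab1a against Rab1b was 0.21 (exact permutation test, p = 0.0857, adjusted 0.140). With the mean of the probe sets it was 0.33 (same test, adjusted p = 0.0571). The pair passed under neither, and the size of its shift depended on how the probe sets were read.

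The other Rabs of this route had smaller differences than Rab34 and Rab2a. Rab18, linked to lipid droplets and the endoplasmic reticulum, was higher by 0.40 ± 0.07 (adjusted p = 0.0015), with atrial pools from 8.31 to 8.55 and ventricular pools from 7.98 to 8.17. Rab33b, a Golgi Rab that also binds autophagy proteins, was higher by 0.31 ± 0.08 (adjusted p = 0.014), but its lowest atrial pool, 6.44, was only just above its highest ventricular pool, 6.39. Rab6a, which acts in retrograde traffic through the Golgi, was higher by 0.26 ± 0.06 (adjusted p = 0.0074) and by 0.42 in its other probe set. The related Rab6b was near the low end in both tissues (3.82 and 3.69). Rab30 was not called by its brightest probe set (-0.14, adjusted p = 0.19), whereas a dim one with means of 3.90 and 3.63 was higher by 0.26 (adjusted p = 0.041) although its pools overlapped.

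None of the Rabs that carry vesicles from the Golgi to the plasma membrane passed. The 4 genes Rab8a, Rab8b, Rab10 and Rab13 had differences from -0.03 to 0.05, standard errors of 0.06 to 0.09 and adjusted p from 0.69 to 0.75. Rab10, known from the insertion of glucose transporters, had a log2 signal of 9.30 ± 0.04 in atrial and 9.33 ± 0.06 in ventricular pools. The shift of Rab8a against Rab8b was 0.01 (exact permutation test, p = 0.886).

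**Figure D3:**
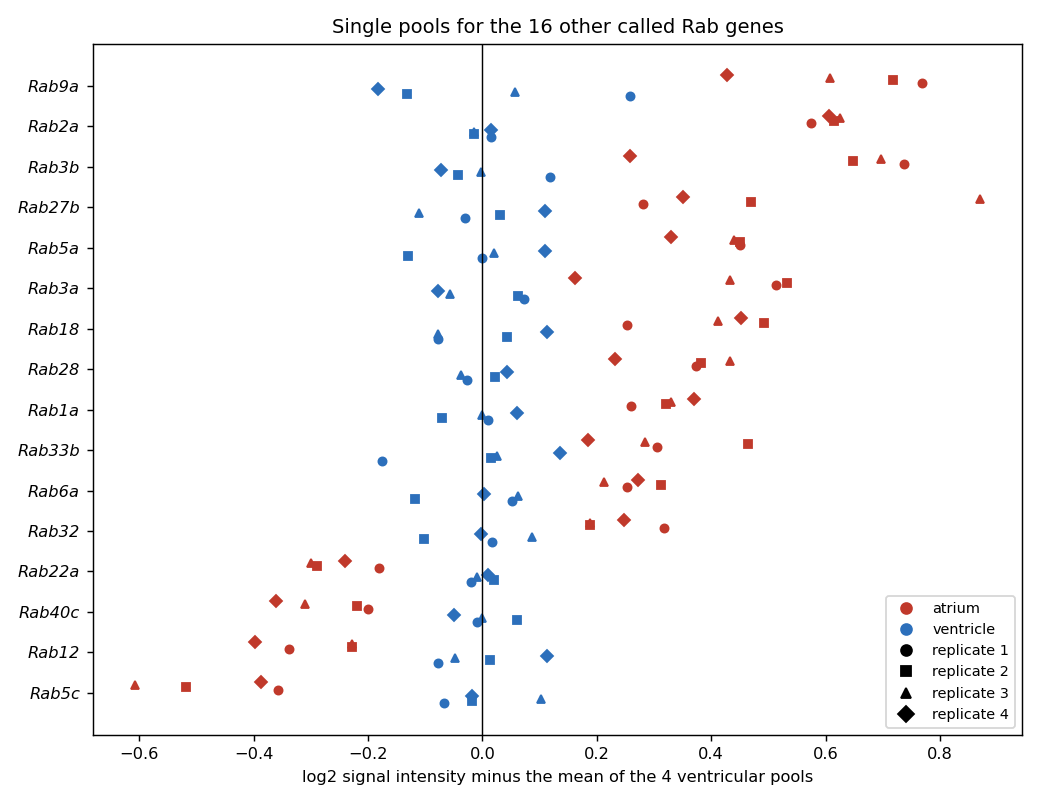
Log2 signal of each pool minus the mean of the 4 ventricular pools for the 16 called Rab genes other than Rab15, Rab40b and Rab34; red symbols are atrial and blue symbols ventricular pools, with a shape for each replicate. In every gene shown the red symbols lie on a single side of the blue ones, and the red diamonds of atrial pool 4 are the closest to the blue ones in genes such as Rab3b, Rab3a and Rab9a.

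Endosomal Rabs were divided. Besides Rab15, Rab5a was higher and Rab5c and Rab22a were lower among 13 genes of early and recycling endosomes, and the median difference was -0.02. Of all genes 22.5% were called in each direction. The Rab5 proteins drive the fusion of early endosomes and are close relatives. Rab5a had log2 signals of 8.18, 8.18, 8.17 and 8.06 in the atria and 7.73, 7.60, 7.75 and 7.84 in the ventricles, and was higher in the former by 0.42 ± 0.07 (adjusted p = 6.5e-04), and 0.69 in its other probe set (adjusted p = 2.2e-05). Rab5c had 7.97, 7.81, 7.72 and 7.94 in the atria and 8.26, 8.31, 8.43 and 8.31 in the ventricles, and so fell by 0.47 ± 0.07 in the atria (adjusted p = 5.2e-04). The pools of the tissues did not overlap in either gene, and the directions were opposite. Rab5b lay between them at a difference of 0.02 ± 0.06 (adjusted p = 0.87), although 1 of its 4 other probe sets, with means of 4.22 and 3.99, was higher by 0.23 (adjusted p = 0.032). The shift of Rab5a against Rab5c was 0.88, that of Rab5a against Rab5b 0.40 and that of Rab5b against Rab5c 0.48, each with the smallest p of the exact permutation test (0.0286, adjusted 0.0643).

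The lower call of Rab22a, which acts in the sorting of cargo at early endosomes, depended on the probe set. Its brightest probe set had 7.61, 7.50, 7.49 and 7.55 in the atria and 7.77, 7.81, 7.78 and 7.80 in the ventricles and fell by 0.25 ± 0.06 (adjusted p = 0.0048). The other 2 probe sets had differences of 0.22 (adjusted p = 0.089) and 0.05 (0.65), and the mean of the 3 differed by 0.003 (adjusted p = 0.97). Rab31, its nearest relative, showed the reverse situation. Its brightest probe set had a difference of -0.15 (adjusted p = 0.15), and a dimmer one, with 4.64 ± 0.10 and 5.08 ± 0.10, fell by 0.44 (adjusted p = 8.0e-04). The shift of Rab22a against Rab31 was -0.11 by the brightest probe sets (exact permutation test, adjusted p = 0.377). With the mean of the probe sets it was 0.30 (same test, adjusted p = 0.0571), so that its sign depended on how the probe sets were read.

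None of the other endosomal Rabs was called by its brightest probe set. Rab11a and Rab11b, which return receptors through the perinuclear recycling endosome, had differences of 0.12 (adjusted p = 0.17) and -0.06 (0.47). A second probe set of Rab11b, however, was higher, with 8.63, 8.50, 8.49 and 8.34 in the atria against 8.05, 8.13, 7.97 and 8.17 in ventricular pools (difference 0.40 ± 0.08, adjusted p = 0.0017). The mean of the probe sets of Rab11b was higher by 0.17 (adjusted p = 0.025), so that the call for this gene turned on the probe set. Rab4a and Rab4b, of rapid recycling, had differences of -0.02 and 0.13, Rab14 of -0.02, Rab21 of -0.12 and Rab35 of 0.01, none of which passed (adjusted p from 0.25 to 0.90). The shifts of Rab4a against Rab4b (-0.15, adjusted p = 0.424) and of Rab11a against Rab11b (0.18, adjusted p = 0.103) did not pass the exact permutation test.

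On the late endosomal route Rab9a rose and Rab12 fell. Rab9a returns mannose 6-phosphate receptors from late endosomes to the Golgi. Its log2 signal was 8.11, 8.06, 7.95 and 7.77 in the atria and 7.60, 7.21, 7.40 and 7.16 in the ventricles, and was higher in the former by 0.63 ± 0.11, or 1.54-fold (adjusted p = 9.3e-04). Its pools varied more than those of most Rabs, with an SD of 0.20 in the ventricles. Rab12, which directs receptors from recycling endosomes to lysosomes, had 9.77, 9.88, 9.88 and 9.71 in the atria and 10.03, 10.12, 10.06 and 10.22 in the ventricles and fell by 0.30 ± 0.07 (adjusted p = 0.0062). A dimmer probe set of Rab12 had a difference of 0.07 (adjusted p = 0.49), and with the mean of both probe sets the difference was -0.11 (adjusted p = 0.20). Rab7a, which governs fusion with lysosomes, had a difference of 0.06 (adjusted p = 0.41) by its brightest probe set and was higher by 0.18 (adjusted p = 0.030) by the other. Rab24, linked to autophagy, was not called (-0.07, adjusted p = 0.36).

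Among the remaining Rabs, Rab28 and Rab32 were higher. Rab28, which travels in cilia, had 10.38, 10.39, 10.44 and 10.24 in the atria and 9.98, 10.03, 9.97 and 10.05 in the ventricles, and was higher in the former by 0.36 ± 0.06 (adjusted p = 0.0011). Rab32, of lysosome-related organelles, was higher by 0.24 ± 0.06 (adjusted p = 0.014), with atrial pools from 5.96 to 6.09 and ventricular pools from 5.67 to 5.86. Without atrial pools 1 and 4 the difference of Rab32 was 0.19 and did not pass (adjusted p = 0.079). Its relative Rab38 was not called (0.11, adjusted p = 0.40), and the shift between the pair was 0.13 (exact permutation test, p = 0.286).

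The order of the atrial pools varied among the higher genes. Atrial pool 4 was the lowest atrial pool in 7 of the 15 higher genes, pool 1 in 6, pool 3 in 2 and pool 2 in 0. Pool 2 was the highest in 6 and pools 1, 3 and 4 in 3 each. Pools 1 and 4 were those with the higher signals of ventricular muscle transcripts, and pool 4 also had the highest adipocyte mean (8.43). A link between these signals and the order of the pools was not tested. The 19 calls were made again with each of the 8 pools left out in turn.

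Probe sets of the same gene were compared as a further reading of the same RNA. Of all 76 Rab probe sets 27 were higher and 5 lower, against 18.6% and 20.1% of all probe sets on the array. In the 8 higher genes with several probe sets, 8 of the 9 other probe sets were higher too. In the 2 lower genes with several, Rab12 and Rab22a, 0 of the 3 other probe sets were lower, so that the lower calls with no contradiction of this kind, Rab5c and Rab40c, each rest on 1 probe set. In the 12 genes not called, 17 of 22 other probe sets were not called either. No gene had probe sets called in opposite directions.

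**Figure D4:**
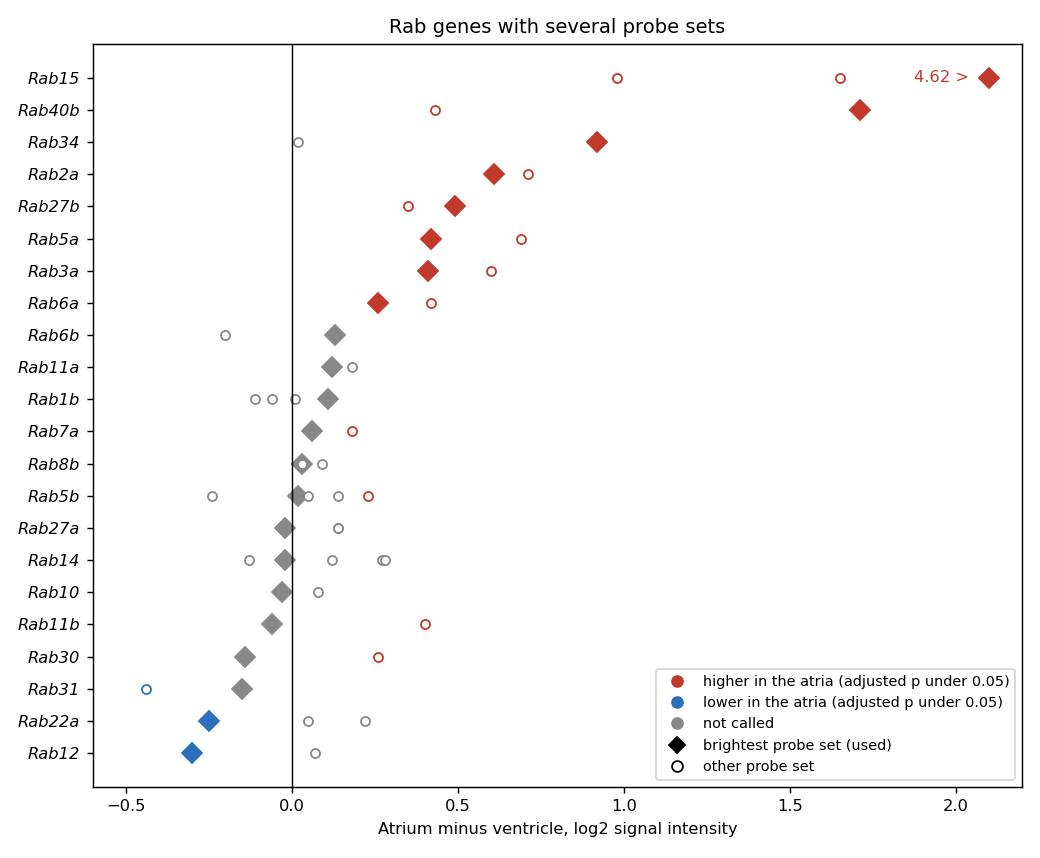
Atrial minus ventricular mean log2 signal of each probe set for the 22 Rab genes with several; filled diamonds are the brightest probe set, which represents the gene, open circles are the others, colors give the call, and Rab15 (4.62) is drawn at the edge of the axis. Circles share the color of the diamond in most of the higher genes, while those of Rab12 and Rab22a are grey on the other side of zero.

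The proteins that load, release and read Rabs were examined through lists of 143 genes, of which 128 were measured. Of these 29 were higher in the atria and 34 were lower, with a median difference of -0.07, shares near the 22.5% of all genes in each direction. The small list of prenylation and membrane release had 3 of 5 genes higher and none lower. Chm, the Rab escort protein, had atrial pools from 5.63 to 6.11 and ventricular pools from 4.75 to 5.19 and was higher by 0.90 ± 0.12 (adjusted p = 1.4e-04). Rabac1, a receptor for prenylated Rabs, was higher by 0.30 (adjusted p = 0.015) and Gdi2, which extracts Rabs from membranes, by 0.18 (0.025).

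Exchange factors and GAPs were called in both directions, where 22.5% of all genes were called in each. Of 40 measured GEFs 4 were higher and 14 lower, with a median of -0.07. Past the thresholds of the study 3 GEFs were lower, as were 2.53% of all genes. Among these 3 GEFs, Dennd2b, an exchange factor of Rab13, fell by 1.07 (adjusted p = 3.3e-06), and Dennd3, an exchange factor of Rab12, fell by 0.89 (7.5e-07). Trappc1 and Trappc2, subunits of the TRAPP complexes that activate Rab1, were higher by 0.70 (adjusted p = 4.2e-05) and 0.54 (8.2e-04), and Sbf2, of the DENN family, by 0.60 (6.5e-04). Of the other measured TRAPP subunits, Trappc5 fell by 0.27 (adjusted p = 0.0071), and Trappc3, Trappc4, Trappc6a, Trappc6b, Trappc9 and Trappc10 were not called. Of 33 measured GAPs 9 were higher and 8 lower, with a median of -0.09. Tbc1d10c, also known as carabin, an inhibitor of calcineurin and Ras, was the most changed, with 8.18, 8.36, 8.10 and 7.86 in the atria and 6.24, 6.13, 5.96 and 6.24 in the ventricles (difference 1.98 ± 0.11, adjusted p = 2.4e-07). Tbc1d8b was higher by 1.26 (6.6e-06) and Rabgap1l by 1.01 (1.6e-04). Tbc1d9 fell by 1.15 (1.1e-05), Tbc1d1, which acts on the traffic of glucose transporters, by 0.46 (9.8e-04) and Sgsm2 by 0.38 (0.0037).

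Effectors of Rab3 and Rab27 held the largest difference of all these lists. Sytl2, a synaptotagmin-like protein that binds Rab27 and tethers granules at the plasma membrane, had 10.23, 10.54, 10.47 and 10.09 in the atria against 5.10, 5.51, 5.30 and 5.38 in ventricular pools. The difference was 5.01 ± 0.11, or 32.3-fold (adjusted p = 1.1e-09), against 0.49 for Rab27b and -0.02 for Rab27a themselves. Exph5, another Rab27 effector, had 4.79, 4.73, 4.08 and 3.67 in the atria and 2.95, 2.85, 2.87 and 2.89 in the ventricles, and was higher by at least 1.43 ± 0.21 (adjusted p = 3.4e-04). Its lowest atrial pools were 4 and 3, so the size of the difference varied between pools. Of the 12 measured effectors of this list 2 were higher and 4 lower, where 22.5% of all genes were called in each direction. Among the lower ones Myrip, a link between Rab27 and myosin motors, fell by 0.72 (adjusted p = 8.3e-04). Unc13d, a priming factor of granules, fell by 0.39 (0.0048), and Rims1, also lower, was near the low end in both tissues. The median of the list was -0.01, and 6 of the 12 genes, such as Rims2 and Rph3a of nerve terminals, were near the low end in both tissues.

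Effectors of the endosomal and Golgi Rabs were higher in 11 of 38 cases and lower in 8, with a median of -0.07, against 22.5% of all genes in each direction. Rab11fip1, an effector of Rab11 on recycling endosomes, was higher by 1.71 ± 0.13 (adjusted p = 3.2e-06), with 5.65, 6.01, 5.99 and 5.81 in the atria and 3.82, 4.04, 4.39 and 4.37 in the ventricles. Ehbp1 was higher by 0.70 (2.1e-05), and Uso1, the tether through which Rab1 acts at the Golgi, by 0.65 (2.0e-04). Myo5b, a motor of Rab11 vesicles, fell by 0.59 (adjusted p = 0.018) with overlapping pools, Osbpl1a, a Rab7 effector, by 0.56 (1.9e-04) and Micall2 by 0.55 (0.0030), the atrial means of Myo5b and Micall2 being near the low end. Of 19 further Rab family genes that were measured, 2 were higher and 2 lower. Ift27, a Rab-like protein of intraflagellar transport, was higher by 0.59 (1.9e-04) and Rab9b, near the low end, by 0.55 (3.4e-04), whereas Rab33a fell by 0.31 (0.042) and Rab25 by 0.24 (0.028), both with overlapping pools.

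**Figure D5:**
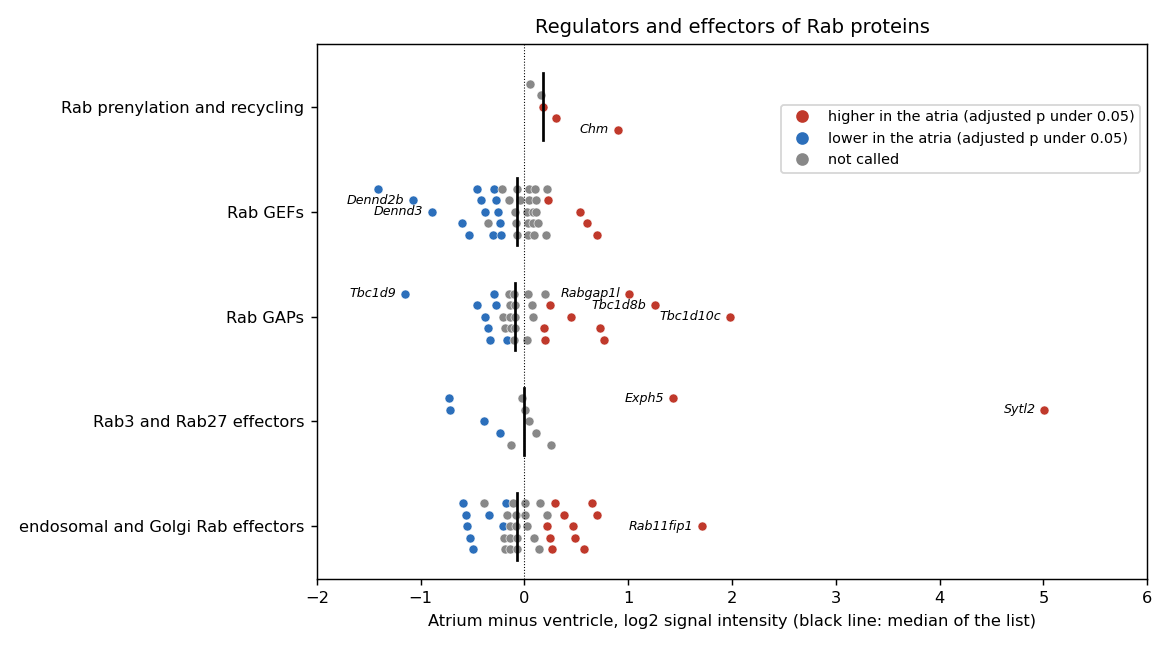
Atrial minus ventricular mean log2 signal of the 128 measured regulators and effectors of Rabs, by list; colors give the call at an adjusted p under 0.05, the black line is the median of a list and some of the genes far from zero are named. Sytl2 (5.01), Tbc1d10c (1.98) and Rab11fip1 (1.71) lie farthest to the right, and the medians lie close to zero apart from that of the prenylation list (0.18).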

How the data were processed

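Expression was measured on 8 Affymetrix Rat Genome arrays, 4 of atrial and 4 of ventricular pools, grouped by their labels. The authors reduced the probes of each probe set to a single value by RMA (robust multi-array average). As deposited, the table gives log2 signal for 31042 probe sets, and no scaling was added here. RMA adjusts background and gives the probe intensities of all arrays the same distribution before it sums up each probe set. Differences are therefore relative to the whole array, but the values of the probe sets need not share a distribution. It also compresses low signals. The version of RMA is not given in the sources used here. Values ran from 1.90 to 13.77 with array medians of 4.80 to 4.81, and pools of a tissue had a median SD of 0.117 (atria) and 0.0986 (ventricles). The number of arrays limits the precision. P-values measure only the spread between these pools.

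Atria and ventricles were compared with limma 3.58.1 in R 4.3.3 (lmFit and eBayes, Benjamini-Hochberg over all probe sets, called at an adjusted p under 0.05). The methods of the study used SAM, which was run as an alternative, and its thresholds were applied to the limma fit. Gene names came from the platform annotation: 20826 probe sets had 1 symbol, 436 several and 9780 none, and 20758 symbols were brought up to date through the gene ID. Where a gene had several probe sets, the brightest on average over the 8 arrays stood for it. A mean under a log2 signal of 4 was taken as near the low end, and a difference with such a mean in 1 tissue is a lower bound for that probe set. Levels were not compared between probe sets.

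The 42 members, the lists of regulators, effectors and markers and the pairs of relatives were chosen with earlier results of these data known, so that no count over a list is independent support. Named were the Rabs past the thresholds of the study, the 8 with the largest called differences in each direction, the members of 18 pairs, genes whose probe sets differ in their call, the other Rabs with a value or a range, and the 3 largest called differences in each direction of each list of regulators or effectors, of which 1 is not reported here. Pairs were tested on the difference of the 2 relatives in each pool by an exact permutation test over 70 labelings (SciPy 1.17.1). Exact matches to motifs were counted in RefSeq promoter windows. Plots were made in Python 3.11.15 with matplotlib 3.10.9. The procedure was tested on simulated data.

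Alternatives were SAM, trended and robust variances, a replicate block, median centring, cyclic loess and quantile normalization, omission of the dimmest 40% of probe sets, the mean of the probe sets of a gene, a fold of 1.5, a test against the fold itself and omission of each pool. The omission of atrial pools 1 and 4 together was chosen after the data had been seen. Atrial and ventricular pools share replicate numbers, and both tissues came from the same 13 rats. Residuals of pools with the same number had correlations from -0.188 to 0.155 and those of other pairs from -0.132 to 0.278. For 2 of 4 atrial pools the ventricular pool with the highest correlation had the same number. So few pools cannot decide whether the numbers pair them. The numbers were not taken as pairs in the main fit, and the replicate block was an alternative.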

Additional observations from a re-analysis of the deposited data

Results flagged for a closer look

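In 5 of 84 groups of 4 pools (42 genes in 2 tissues) a single pool was far from the other pools of its tissue, with a gap above the critical value of the Dixon test. Chance alone gives this in about 1 in 20 groups. Ventricular pool 3 of Rab26 was at 4.03 and the other ventricular pools at 3.51 to 3.60, and the mean was near the low end of the scale in both tissues. Ventricular pool 2 of Rab8a was at 7.64 and the others at 7.54 to 7.55. Atrial pool 4 of Rab5a was at 8.06 and the others at 8.17 to 8.18, and it was still above the highest ventricular pool (7.84). Atrial pool 3 of Rab5b was at 8.33 and the others at 8.49 to 8.50. Atrial pool 4 of Rab14 was at 9.28 and the others at 9.05 to 9.07. Of these genes only Rab5a was called, and the call was made again without atrial pool 4.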

How the results depend on the processing

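All 19 calls of Rab genes were made again, in the same direction, with each pool left out, SAM, trended and robust variances, median centring, cyclic loess, quantile normalization and the replicate block, which kept 15 higher and 4 lower genes and left 2 of the 3 genes past the thresholds of the study, without Rab34 (adjusted p = 1.1e-04). SAM also called Rab26, Rab11a and Rab31, and Rab31 was called without ventricular pool 2. Quantile normalization moved Rab10 from -0.03 to -0.10 and Rab7a from 0.06 to -0.002, and the dim Rab3c the other way, from -0.01 to 0.05. Such moves are about as large as the median difference of 0.06 over the Rab genes. Under that setting 24 regulators and effectors were higher and 38 lower, in place of 29 and 34. With the dimmest 40% of probe sets left out, 38 Rab genes were tested and the 18 calls among them remained. With the mean of the probe sets Rab22a (0.003, adjusted p = 0.97) and Rab12 (-0.11, 0.20) were lost, and Rab11b (0.17, 0.025), Rab31 (-0.30, 0.0036) and Rab7a (0.12, 0.049) were gained, and Rab11b and Rab22a changed sign, while Rab15 moved from 4.62 to 2.42, Rab40b from 1.71 to 1.07 and Rab34 from 0.92 to 0.47. Without atrial pools 1 and 4 together Rab32 was lost. The causes were not tested. The number past the thresholds of the study was 4 with a fold of 1.5, and 2 with the mean of the probe sets or a test against the fold itself. No count moved by more than 1.5 times.

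Detection calls were not analysed here, so that a dim signal cannot be told from none. None of the 18 pairs of relatives passed the exact permutation test after adjustment, whose smallest p is 0.0286 with 4 pools against 4, also with the mean of the probe sets. With that mean the shift of Rab22a against Rab31 went from -0.11 to 0.30 and that of Rab11a against Rab11b from 0.18 to -0.03. For pairs at that smallest p the adjusted value depends on how many pairs reach it, so that the adjustment cannot decide on the single pair. With pools of unknown animals the spread between single rats is not known.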
